A study of Mus musculus with 9 samples.

Results

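Surface and matrix genes that mark adventitial progenitors, adventitial fibroblasts and mesenchymal stromal cells were followed through TGF-β1 treatment of AdvSca1-SM cells. The 10 genes were Ly6a, Cd34, Scara5, Pi16, Dpp4, Dpt, Cd248, Thy1, Eng and Nt5e, named by symbol from a count table of 55416 Ensembl genes. Of the 10, 9 were among the 14879 genes with enough counts to be tested, and Dpp4 was not. The adventitia is the outer coat of an artery, where fibroblasts and resident progenitor cells lie in a collagen-rich matrix. Sca1, the protein of Ly6a, and CD34 are used to sort progenitors from it, and Pi16, Dpp4 and Dpt mark the fibroblasts of the adventitia and of fascia that are often called universal fibroblasts. Thy1 (CD90), Eng (CD105) and Nt5e (CD73) are the standard surface panel of cultured mesenchymal stromal cells.

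The AdvSca1-SM cells were sorted as YFP+ Sca1+ cells from the pooled aortas and carotid arteries of SM22α-Cre-YFP mice aged 8 weeks, in which Cre driven by the smooth muscle gene Tagln (SM22α) switches on YFP, so the cells carry a smooth muscle lineage label. Bulk RNA-Seq was made from 3 libraries in each of 3 groups after 72 h, all with 0.1% DMSO. The study calls the libraries of a group independent replicates, and the number of mice pooled is not given in the sources used here. Per the labels, all cells were maintained with 10% FBS and growth-arrested in 0.1% FBS before treatment. Stem cells received vehicle, TGF-β cells received 5 ng/mL TGF-β1, and Both cells received 5 ng/mL TGF-β1 and 50 µM PFI-3, a ligand of the bromodomain of Brg1, the ATPase of a chromatin-remodeling complex. The sources differ on the medium of Stem cells. The study's text names stem cell medium for them and DMEM with 0.1% FBS for the stimulated cells, whereas the labels describe a switch of growth-arrested cells to DMEM and give the same protocol for all groups. If the media differed, medium and TGF-β1 cannot be told apart in the comparisons with Stem. The stimulated groups differ from each other by PFI-3. Ly6a at the cell surface was part of the sort, so its presence in Stem is not a finding.

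Total counts ran from 35686291 to 47741128 per library, and the biological coefficient of variation between replicates was 6.13%. Stem replicate 2 stood apart from the other Stem libraries in a chi-square comparison of counts (104 and 127 per degree of freedom, against 5.89 to 16.1 for the other pairs of replicates). One label names hepatic tissue as the source of the RNA, and 4 of 5 hepatocyte markers were at 3 counts or fewer in every library. The other, Apob, held 30 to 46 counts in Stem, 27 to 31 in TGF-β and 12 to 20 in Both. Of 6 endothelial markers Emcn was the highest in Stem, at 43 to 168 counts, and Pecam1 held 3 to 13 counts in any library. Of 6 leukocyte markers Lyz2 held 97 to 163 and Csf1r 17 to 156 counts, and the other 4, Ptprc among them, at most 3. Values are normalized counts, which are read counts scaled to one library size, given for replicates 1, 2 and 3 in turn. A gene was called at an adjusted p below 0.05 in edgeR's quasi-likelihood test if its log2 fold change also lay outside -1 to 1.

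In Stem, the levels of the 10 genes spanned more than 3 orders of magnitude. Per kilobase of transcript, which allows genes to be compared, Dpt was the highest in Stem at 15713 ± 272 normalized counts (SD, n = 3), followed by Ly6a at 9741 ± 1239. Eng at 3912 ± 597, Thy1 at 3499.9 ± 161 and Cd248 at 2641 ± 471 formed a middle group, in which Eng and Thy1 did not separate beyond their spread. Scara5 at 332 ± 91.9, Pi16 at 222 ± 9.96 and Cd34 at 173 ± 23.1 were lower, and Dpp4 at 6.32 ± 3.53 and Nt5e at 4.84 ± 3.41 overlapped at the bottom. The Stem cells therefore carried much Dpt, Ly6a, Eng and Thy1 RNA and little RNA of Nt5e, the third gene of the stromal panel. Under TGF-β the order per kilobase became Cd248 (5969 ± 159.7), Eng (4363 ± 247), Thy1 (3381 ± 196), Dpt (2881 ± 509), Pi16 (2522 ± 69.1) and Ly6a (1201 ± 169.6), then Scara5, Cd34, Nt5e and Dpp4, all at or below 27.1. Dpt and Pi16, and Cd34 and Nt5e, were neighbours whose libraries overlapped. In Both the order was that of TGF-β except that Dpt and Thy1, and Nt5e and Cd34, changed places. Dpt overlapped with Thy1 there, and Scara5 with Nt5e. When levels were set by the longest transcript instead, 5 genes of the Stem order, 3 of the TGF-β order and 2 of the Both order moved to another rank, and Cd248 then stood above Eng in Stem.

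**Figure D1:**
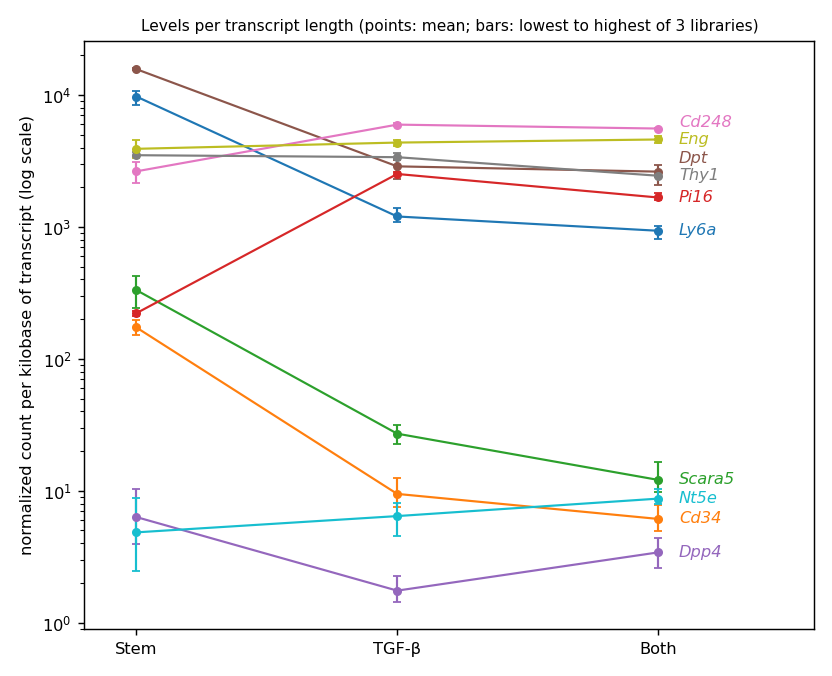
Normalized counts per kilobase of mean transcript length (vertical, log scale) of the 10 genes in Stem, TGF-β and Both (horizontal). Points are means and bars run from the lowest to the highest of 3 libraries. Dpt and Ly6a are the highest in Stem and Cd248 is the highest in TGF-β and Both, where it lies at 5969 and 5573.

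Between Stem and TGF-β the 10 genes split. The 3 progenitor markers and Dpt were 5.45-fold to 18.2-fold lower with TGF-β, Pi16 was 11.4-fold and Cd248 2.26-fold higher, and Thy1, Eng and Nt5e did not pass the test. Of 9 tested, 6 were called, 4 lower and 2 higher, with a median log2 fold change of -0.05. Over all tested genes 25.1% were called, 14.5% lower and 10.6% higher, with a median of 0. Without the fold-change minimum the count was still 6, where 75.0% of all tested genes passed. The libraries of the groups did not overlap for the same 6 genes, as for 76.8% of all tested genes. Without Stem replicate 2 the count was 6, both here and between Stem and Both.

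**Figure D2:**
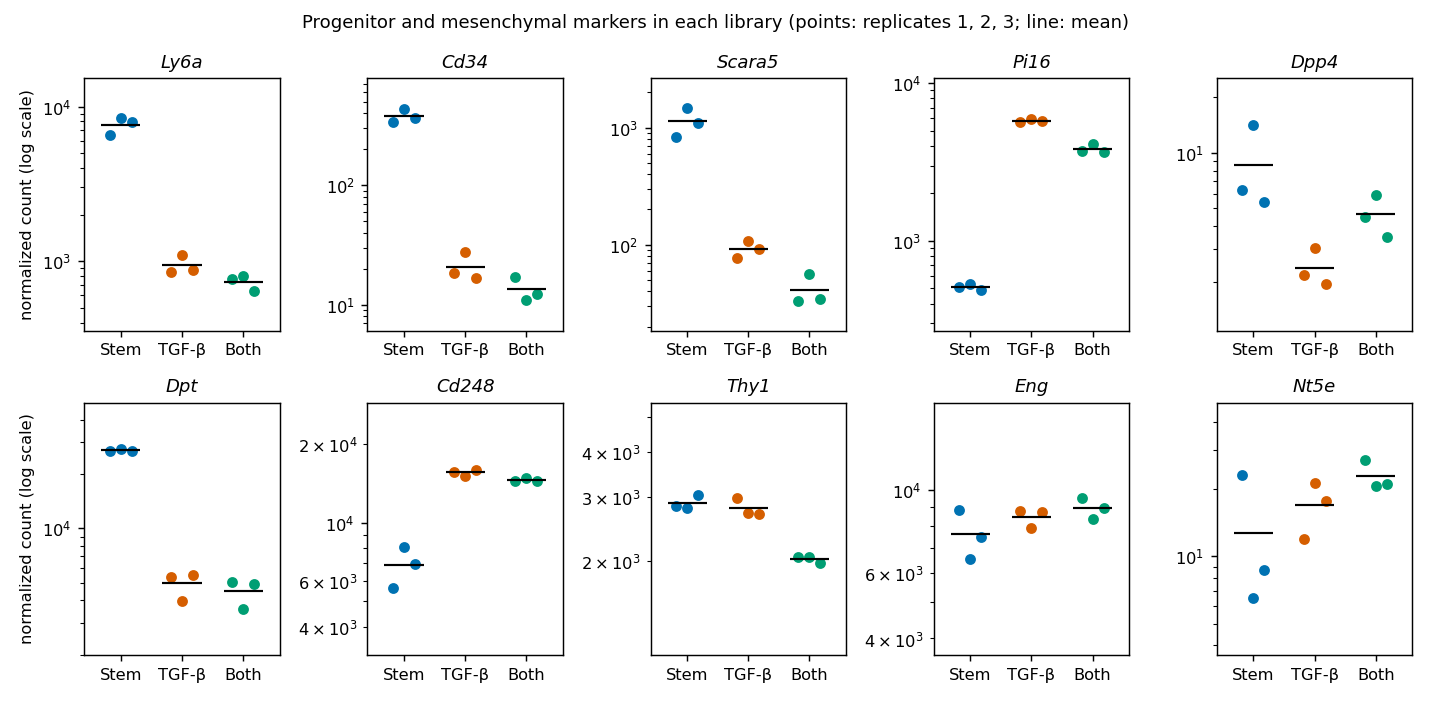
Normalized counts (vertical, log scale, its own range in each panel) of the 10 genes in Stem, TGF-β and Both (horizontal). Points are replicates 1, 2 and 3 from left to right and lines are means. Ly6a, Cd34, Scara5 and Dpt lie lower and Pi16 and Cd248 higher in all 3 TGF-β libraries than in any Stem library, while the groups overlap for Thy1, Eng and Nt5e.

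Ly6a encodes Sca1, a GPI-anchored surface protein of the Ly6 family. It was at 6557, 8441 and 7908 normalized counts in Stem, at 855, 1094 and 875 in TGF-β and at 762, 799.5 and 639.8 in Both. Every stimulated library was far below every Stem library, yet no stimulated library had fewer than 729 counts of the gene. From Stem to TGF-β the log2 fold change was -3.02 ± 0.116 (SE, adjusted p = 2.44e-10). In bulk libraries, fewer cells that express a gene and less RNA per cell cannot be told apart. Ly6a shares 1.45% of its 100-base stretches with Ly6c1 and none of those of the other 9 genes is shared with another protein-coding gene.

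Cd34 encodes a sialomucin of progenitor, endothelial and stromal cells. The Stem libraries held 336, 435 and 366 normalized counts of it, the TGF-β libraries 18.3, 27.4 and 16.6 and the Both libraries 17.1, 10.9 and 12.3. The TGF-β and Both libraries rested on 11 to 27 counts each, so Cd34 was near the limit of what these libraries resolve but above the 3 counts taken as a floor. Its log2 fold change from Stem to TGF-β was -4.18 ± 0.181 (SE, adjusted p = 7.11e-10), or 18.2-fold, the steepest fall of the 10. Endothelial cells also express Cd34. Of 6 endothelial markers Emcn also fell, from 176, 46.7 and 90.9 in Stem to 2.16, 5.07 and 17.6 in TGF-β (-3.61, adjusted p = 0.000143). Kdr rose instead, from a mean of 0.721 to 26.1 (4.97, adjusted p = 8.34e-06). Cdh5, which did not pass the filter on low counts, held 0 to 3 counts in Stem, 6 to 9 in TGF-β and 4 to 8 in Both. Pecam1 held 3 to 13 counts in any library. Within Stem, Emcn was highest in replicate 1 and lowest in replicate 2, and Cd34 the reverse. The part of these markers in the Cd34 value was not tested.

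Scara5 encodes a class A scavenger receptor that takes up ferritin and marks adventitial stromal progenitors. It stood at 834, 1459 and 1102 normalized counts in Stem, at 76.6, 108 and 92.8 in TGF-β and at 33.3, 56.3 and 34.2 in Both, so that the 3 groups formed 3 steps with no overlap. From Stem to TGF-β it fell by 3.61 ± 0.215 on the log2 scale (SE, adjusted p = 1.44e-08). All 3 progenitor markers among the 10 genes therefore passed the threshold in the same direction. Other progenitor markers differed. Gli1 rose by 3.29 on the log2 scale (adjusted p = 0.00103), on 0 to 2 counts in Stem and 10 to 12 in TGF-β. Klf4 rose by 0.72 (adjusted p = 2.05e-09), under 2-fold, while Pdgfra fell by 3.07 (adjusted p = 1.23e-12).

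The fibroblast markers did not move together. Pi16 encodes a secreted or membrane-anchored protein of the CAP family. It was at 508, 530.3 and 485 normalized counts in Stem, at 5650.2, 5950.1 and 5713 in TGF-β and at 3709, 4136 and 3641 in Both. Its rise from Stem to TGF-β was 3.51 ± 0.0595 on the log2 scale (SE, adjusted p = 3.66e-13), with a 95% interval of 3.38 to 3.64. Across the 3 libraries of a group Pi16 varied little, by 2.74% to 7.01% (coefficient of variation).

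Dpt encodes dermatopontin, a small matrix protein that binds decorin and collagen fibrils. In Stem it held 26690.4, 27605 and 26974 normalized counts, in TGF-β 5399, 3957 and 5546 and in Both 5072, 3586 and 4929. From Stem to TGF-β the log2 fold change was -2.45 ± 0.137 (SE, adjusted p = 7.94e-09), or 5.45-fold lower. Replicate 2 was the lowest of both stimulated groups, 1.40-fold and 1.41-fold below the highest, whereas the Stem libraries lay within 1.03-fold. Dcn, the decorin gene and a binding partner of dermatopontin, moved in the same direction, from 14148, 20186 and 16281 in Stem to 2427, 2764 and 2407 in TGF-β (log2 fold change -2.74, adjusted p = 4.71e-10).

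Dpp4 encodes CD26, a membrane serine protease, and stood near the floor of detection. It had 6, 13 and 5 counts in Stem, 2, 3 and 2 in TGF-β and 5, 6 and 4 in Both. The TGF-β libraries were at or under the floor, and the filter on low counts removed the gene from the test. The ratio of summed counts, scaled for library size, was 3.60 between Stem and TGF-β with an exact 95% interval of 1.5 to 9.88, which covers counting error only. An exact permutation test between Stem and TGF-β gave a 2-sided p of 0.1, the smallest that 3 libraries against 3 allow. With DESeq2, or with edgeR without the filter, Dpp4 passed the threshold as lower (log2 fold changes -1.84 and -1.79, adjusted p = 0.0488 and 0.0163), and 7 of the 10 genes were then called.

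The promoters of the genes with opposite changes are shown from 250 bases before to 50 bases after the start site, from RefSeq on GRCm38.p6, a build other than that of the counts. The table held 6 of the 10 genes (Cd34, Pi16, Dpp4, Dpt, Eng and Nt5e) and not Ly6a, Scara5, Cd248 or Thy1. Cd34 is shown as the steepest fall, Pi16 as the steepest rise and Dpt as a fibroblast marker that moved against Pi16. Capitals mark matches to the motifs searched on both strands, which were TGANTCA (AP-1), GGAATG (TEAD), GGCGCC and GTCTAGAC (SMAD), TATAAA (the TATA box) and the CArG box of SRF.
Cd34 (chr1:194938571-194938870, plus strand): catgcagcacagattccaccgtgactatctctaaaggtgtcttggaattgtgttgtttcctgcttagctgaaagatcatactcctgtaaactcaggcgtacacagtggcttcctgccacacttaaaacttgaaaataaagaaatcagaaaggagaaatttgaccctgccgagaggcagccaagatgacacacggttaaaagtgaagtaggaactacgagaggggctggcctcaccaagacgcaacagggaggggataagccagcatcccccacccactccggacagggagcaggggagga
Pi16 (chr17:29318632-29318931, plus strand): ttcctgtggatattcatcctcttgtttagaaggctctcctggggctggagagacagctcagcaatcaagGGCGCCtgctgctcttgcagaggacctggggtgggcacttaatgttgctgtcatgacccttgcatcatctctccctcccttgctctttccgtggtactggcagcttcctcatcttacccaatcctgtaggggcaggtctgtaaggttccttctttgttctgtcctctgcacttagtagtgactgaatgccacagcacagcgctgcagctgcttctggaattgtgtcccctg
Dpt (chr1:164796413-164796712, plus strand): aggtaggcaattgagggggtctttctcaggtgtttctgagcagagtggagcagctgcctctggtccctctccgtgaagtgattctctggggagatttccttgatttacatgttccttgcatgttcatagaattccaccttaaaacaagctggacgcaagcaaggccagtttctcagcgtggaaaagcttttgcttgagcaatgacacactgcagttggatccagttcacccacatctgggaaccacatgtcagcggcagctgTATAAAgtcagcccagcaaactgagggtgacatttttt
In Pi16, GGCGCC, which reads the same on both strands, lay at -181 to -176 from the start site; 11.9% of the 32851 promoters in the table hold it. In Dpt, TATAAA lay at 13 to 18, inside the transcribed part as annotated, and 13.6% of promoters hold it. Cd34, Eng and Nt5e had no match in this window. Dpp4 held TATAAA at -227 to -222 and GGAATG, on the minus strand, at -118 to -113, motifs found in 13.6% and 14.7% of promoters. AP-1, the SMAD palindrome and the CArG box, present in 7.81%, 0.213% and 1.63% of promoters, matched none of the 6. The matches did not overlap each other.

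Of the stromal surface genes, Cd248 rose and the standard panel did not pass edgeR's test on all libraries with TMM scaling. Cd248 encodes endosialin, a C-type lectin receptor of stromal cells and pericytes. It was at 5628, 8079.9 and 6932 normalized counts in Stem, at 15634, 15099 and 15918 in TGF-β and at 14386, 14778 and 14389 in Both. The stimulated libraries were nearly equal to each other and all above Stem, where replicate 2 was 1.44-fold above replicate 1. Its log2 fold change from Stem to TGF-β was 1.18 ± 0.0951 (SE, adjusted p = 2.45e-07). The pericyte markers Cspg4 and Rgs5 rose beside it by 4.15 and 5.68 on the log2 scale, while Kcnj8 and Abcc9, also pericyte markers, fell by 3.54 and 3.29. The summed pericyte list was at 2716 to 3315 in Stem and 23604 to 24955 in TGF-β and 14602 to 16122 in Both. Cspg4 and Rgs5 carried most of the sum in TGF-β, with means of 16076 and 6409 there and 904 and 125 in Stem. The part of the pericyte markers in the rise of Cd248 was not tested.

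Thy1, a GPI-anchored immunoglobulin-family protein, was at 2829.7, 2811 and 3051 in Stem and at 2986, 2711 and 2699 in TGF-β. The groups overlapped, and the log2 fold change of -0.05 had a 95% interval of -0.16 to 0.06 (adjusted p = 0.37). Scaled by total counts, it was -0.17 with an adjusted p of 0.0135. Eng encodes endoglin, a co-receptor for ligands of the TGF-β family. It was at 8814, 6507 and 7467 in Stem and at 8797, 7921 and 8700 in TGF-β, with a log2 fold change of 0.16 and an interval of -0.04 to 0.35 (adjusted p = 0.133). Neither interval reaches a 2-fold change. With 1 library left out, edgeR put Eng at 0.06 to 0.28, with adjusted p from 0.00269 to 0.439. The alternatives that kept every library of the groups compared, DESeq2 among them, gave adjusted p from 0.00537 to 0.771. Eng shares 61 exon bases with Fpgs on the opposite strand, a gene of 437 to 809 counts here.

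Nt5e encodes CD73, the enzyme that makes adenosine from AMP outside the cell. Its libraries held 22, 6 and 8 counts in Stem, 11, 21 and 18 in TGF-β and 30, 21 and 24 in Both. Stem replicate 1 was 3.53-fold above replicate 2 and inside the range of the stimulated libraries. From Stem to TGF-β the log2 fold change was 0.40 with an interval of -0.52 to 1.32 (adjusted p = 0.401), so a 2-fold rise was not excluded at this depth. Without Stem replicate 1 it was 1.15 (adjusted p = 0.0208), past the threshold. That library also held the most RNA of 2 endothelial-expressed genes, Emcn (168 counts, against 43 and 84) and Clec14a (628, against 250 and 355), and their part in the Nt5e value was not tested.

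**Figure D3:**
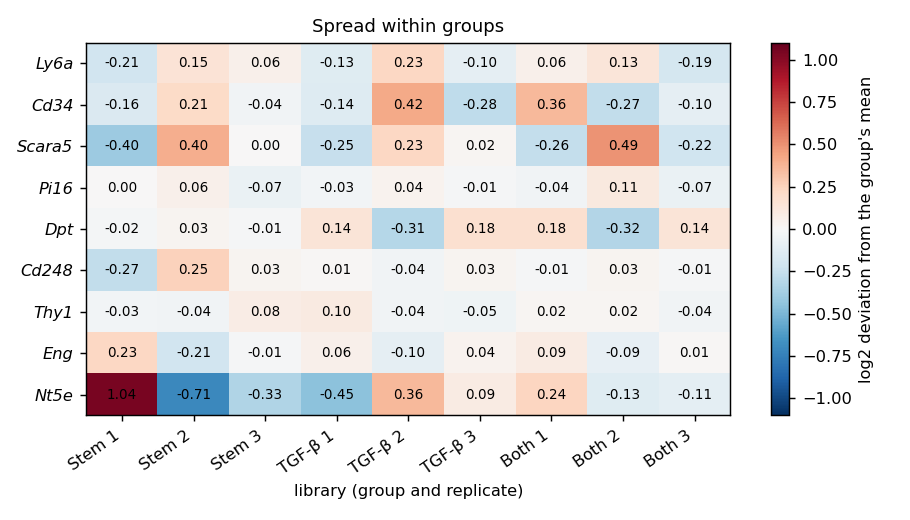
Log2 deviation of each library (horizontal) from the mean of its group for the 9 tested genes (vertical), with the value printed in each cell. Nt5e in Stem replicate 1 stands out at 1.04, and Dpt is below its group mean in replicate 2 of both TGF-β and Both, at -0.31 and -0.32.

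Within Stem, several genes were spread over the libraries in the same way. Replicate 2 was the highest and replicate 1 the lowest for Ly6a, Cd34, Scara5 and Cd248, by 1.29-fold, 1.29-fold, 1.75-fold and 1.44-fold. The reverse held for Eng and Nt5e, at 1.35-fold and 3.53-fold. Dpt, Pi16 and Thy1 stayed within 1.09-fold in Stem. Among the called genes, these differences were smaller than the changes between Stem and TGF-β.

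None of the 4 genes that fell with TGF-β was higher in Both at the test's threshold. Of 9 tested genes, 1 was called between TGF-β and Both, Scara5, which was lower still with PFI-3. Over all tested genes 0.632% were called and 0.470% were called lower. At an adjusted p below 0.05 alone 3 genes passed (Scara5, Pi16 and Thy1), all lower in Both, where 8.92% of all tested genes passed and 5.38% were lower. The median log2 fold change was -0.36 over the 9 genes and 0 over all tested genes. Values did not overlap between the groups for 5 of the 9 genes (Ly6a, Scara5, Pi16, Cd248 and Thy1), as for 32.7% of all tested genes.

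Scara5 was 2.24-fold lower in Both, a log2 fold change of -1.18 ± 0.314 (SE, adjusted p = 0.0383) on 37 to 106 counts per library. The call was lost in 5 of the 6 fits that left out 1 TGF-β or Both library, with adjusted p up to 0.146, and was kept without Both replicate 2. Pi16 was 1.51-fold lower in Both (log2 fold change -0.59 ± 0.0505, SE, adjusted p = 4.3e-05), which placed it between Stem and TGF-β but still 7.54-fold above Stem. Thy1, for which Stem and TGF-β overlapped, was at 2048, 2053 and 1972 in Both, below all 6 other libraries and 1.38-fold below TGF-β (-0.47 ± 0.0498, SE, adjusted p = 0.000187).

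Ly6a was 1.28-fold lower in Both with no overlap of libraries, a log2 fold change of -0.36 with an interval of -0.62 to -0.10 and an adjusted p of 0.0859 by edgeR. DESeq2 gave it an adjusted p of 0.0281 at the same log2 fold change, so the gene was under 2-fold lower by either tool. Over the alternatives in edgeR and DESeq2 that kept every library of the groups compared, the adjusted p of Ly6a ran from 1.02e-05 to 0.0876. With 1 library left out, edgeR gave 0.0818 to 0.315 at log2 fold changes of -0.43 to -0.24. Cd34 had a log2 fold change of -0.62 with a wide interval of -1.27 to 0.03 (adjusted p = 0.234). Both intervals lie below a 2-fold rise. Dpt differed by -0.13 (interval -0.42 to 0.16, adjusted p = 0.6), Cd248 by -0.10 (-0.30 to 0.10, adjusted p = 0.577) and Eng by 0.08 (-0.12 to 0.27, adjusted p = 0.663). Nt5e differed by 0.43 with an interval of -0.37 to 1.23 (adjusted p = 0.53), and Dpp4 by 7 against 15 summed counts, a ratio of 0.518 with an exact interval of 0.179 to 1.35.

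**Figure D4:**
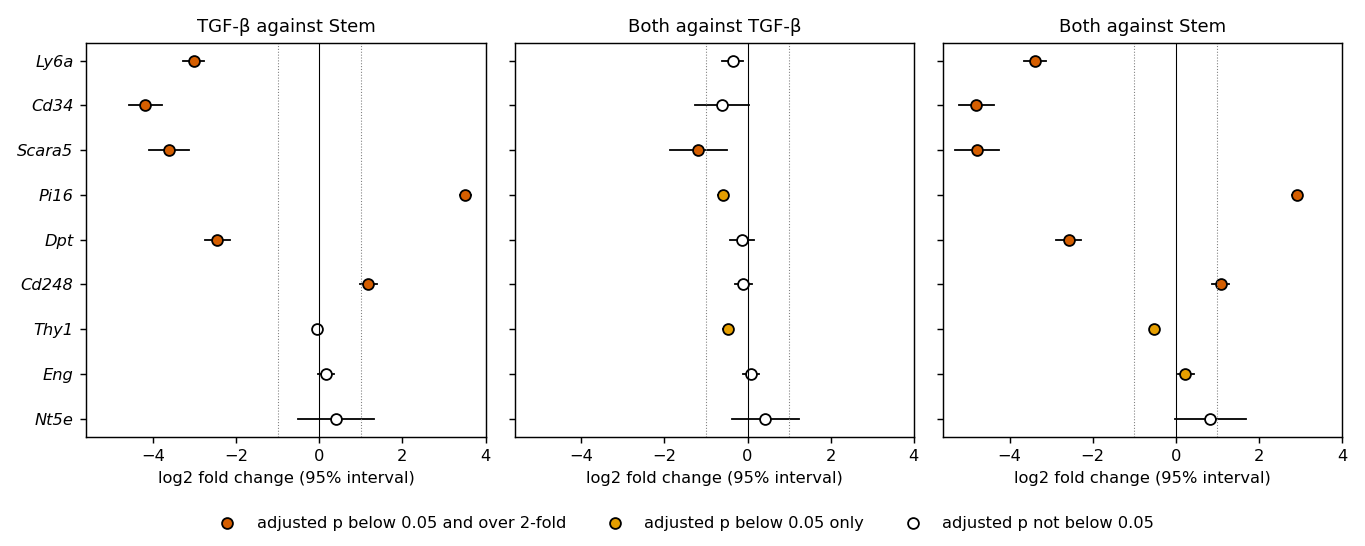
Log2 fold change (horizontal) of the 9 tested genes (vertical) in the 3 comparisons, with bars for the 95% interval and dotted lines at -1 and 1. Dark orange points are past the threshold, yellow points pass the adjusted p alone and open points pass neither. Scara5 is the one gene past the threshold between TGF-β and Both, at -1.18.

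Between Stem and Both, 6 of 9 tested genes were called, 4 lower and 2 higher. Over all tested genes 22.8% were called, 13.2% lower and 9.55% higher. The comparison shares its Stem libraries with the first and its Both libraries with the second, so its values are set side by side with theirs and not as a repeat. Ly6a was at -3.38 against -3.02 for TGF-β, Cd34 at -4.80 against -4.18, Scara5 at -4.79 against -3.61 and Dpt at -2.58 against -2.45 on the log2 scale. Pi16 was at 2.91 against 3.51 and Cd248 at 1.08 against 1.18. Without Stem replicate 1, or scaled by total counts, Cd248 was at 0.96 or 0.97 and under the fold-change minimum. At an adjusted p alone 8 of 9 passed, where 73.3% of all tested genes did, and the added genes were Thy1 at -0.52 (adjusted p = 1.35e-06) and Eng at 0.23 (adjusted p = 0.0334). The Eng libraries of Stem and Both overlapped, and its adjusted p was 0.292 when libraries were scaled by total counts. Nt5e was at 0.83 (interval -0.02 to 1.69, adjusted p = 0.0734) and, without Stem replicate 1, at 1.59 (adjusted p = 0.00233).

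Relatives and partners of the 10 genes that passed the threshold were mostly lower with TGF-β. Of 29 such genes 27 were tested and 13 called between Stem and TGF-β, 12 lower and 1 higher, with a median log2 fold change of -0.92. Over all tested genes 25.1% were called, 14.5% lower and 10.6% higher. Among genes of the Ly6 family, Ly6c1, which is in the list of progenitor markers, fell from 1527, 1501 and 1611 to 77.7, 88.2 and 103 (-4.10 ± 0.101, SE, adjusted p = 5.44e-12) and Ly6e by 1.66 on the log2 scale (adjusted p = 4.13e-08), while Ly6c2 had at most 1 count in any library. Fap, a serine protease related to Dpp4 and known from activated fibroblasts, also fell, by 1.36 (adjusted p = 0.000192), from 78.5, 152 and 114 to 42.1, 38.5 and 52.7. The other Dpp4 relatives in the list, Dpp8 and Dpp9, were at 0.04 and 0.08 (adjusted p = 0.368 and 0.13). The largest falls among the relatives and partners were in Clec14a (-4.32, adjusted p = 2.37e-07), a C-type lectin related to Cd248, and Tgfbr3. The 1 rise was in Ftl1, a ferritin light chain (1.14, adjusted p = 1.61e-09).

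Receptors that work with endoglin were read beside Eng. Tgfbr3, which encodes betaglycan, the other large co-receptor of the TGF-β family, went from 23775, 22006 and 23819 in Stem to 1634, 1557 and 1542 in TGF-β (-3.88 ± 0.0565, SE, adjusted p = 1.4e-13). It was higher again in Both, at 2426, 2204 and 2472 (0.59, adjusted p = 6.78e-05), by less than 2-fold. Tgfbr2 and Acvrl1, which encode a type II and a type I receptor, were lower in TGF-β by under 2-fold (-0.76 and -0.92, adjusted p = 6.53e-08 and 3.12e-07), and Tgfbr1 was at 0.10 (adjusted p = 0.114). Along the adenosine path of Nt5e, Entpd1, the ectoenzyme that makes AMP, fell by 1.11 (adjusted p = 3.84e-05). Of the adenosine receptor genes, Adora2a fell by 2.2 (adjusted p = 1.1e-07) and Adora2b was at -0.96 (adjusted p = 0.000129), under the fold-change minimum. Alpl, a phosphatase that can also release adenosine, was at 0.02 (adjusted p = 0.92). Between TGF-β and Both 0 of these 27 relatives and partners passed edgeR's threshold and 0 that of DESeq2. In edgeR 0.632% of all tested genes were called there. Of the 27 genes, 10 had an unadjusted p below 0.05 in edgeR and 7 an adjusted one, 5 higher and 2 lower. Of all 14879 tested genes 1327 (8.92%) passed the adjusted p, 527 as higher and 800 (5.38%) as lower.

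Other markers of the same kinds of cell also moved in both directions. Of 16 other adventitial progenitor and universal fibroblast markers 15 were tested and 10 called between Stem and TGF-β, 7 higher and 3 lower (median 0.72). Over all tested genes 25.1% were called, 10.6% higher and 14.5% lower. Mfap5, a microfibril protein gene often used with Pi16, rose from 1223, 1683 and 1438 to 9592, 9516 and 9224 (2.71 ± 0.0899, SE, adjusted p = 6.97e-11), and the chemokine receptor gene Ackr3 by 1.79 (adjusted p = 2.92e-10). Pdgfra, the receptor that marks most fibroblasts and stromal progenitors, fell from 42748, 48433 and 45791 to 5688, 5132 and 5496 (-3.07 ± 0.0619, SE, adjusted p = 1.23e-12). Ly6c1 was the steepest fall in this list. Between TGF-β and Both 1 of the 15 was called, where 0.632% of all tested genes were. It was the adventitial collagen gene Col15a1, which went from 4111, 4183 and 4278 to 1988, 1939.5 and 1785 (-1.14, adjusted p = 1e-06). Its values in Both lay below those in Stem of 2827, 2877 and 2576.

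Among other mesenchymal surface markers, log2 fold changes from Stem to TGF-β lay between -1.31 and 1.28. Of 12 such genes 10 were tested and 4 called between Stem and TGF-β, 3 higher and 1 lower (median 0.52). Over all tested genes 25.1% were called, 10.6% higher and 14.5% lower. With total counts in place of TMM, 2 of the 10 were called, 1 in each direction. Mcam (CD146) rose by 1.28 (adjusted p = 8.74e-06) and Pdgfrb by 1.02 (adjusted p = 2.72e-09), while Anpep (CD13) fell by 1.31 (adjusted p = 4.43e-10) on the log2 scale. Pdgfrb and Pdgfra thus moved in opposite directions. Between TGF-β and Both edgeR and DESeq2 each called 0 of the 10, where edgeR called 0.632% of all tested genes. Of the 10 genes, 8 had an unadjusted p below 0.05 in edgeR and 5 an adjusted one, all 5 lower. Of all tested genes 8.92% passed the adjusted p, and 5.38% were lower. For reference, all 6 myofibroblast genes (Acta2, Postn, Col1a1, Fn1, Tagln and Cthrc1) rose with TGF-β at the adjusted p. Of all 14879 tested genes 75.0% passed the adjusted p there, 5548 genes as higher. Past the threshold were 5 of the 6, Fn1 being under 2-fold higher (0.76, adjusted p = 5.18e-08). With PFI-3, 5 of the 6 were lower at the adjusted p, and 1 of these, Postn (-1.74, adjusted p = 2.09e-06), passed the threshold.

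**Figure D5:**
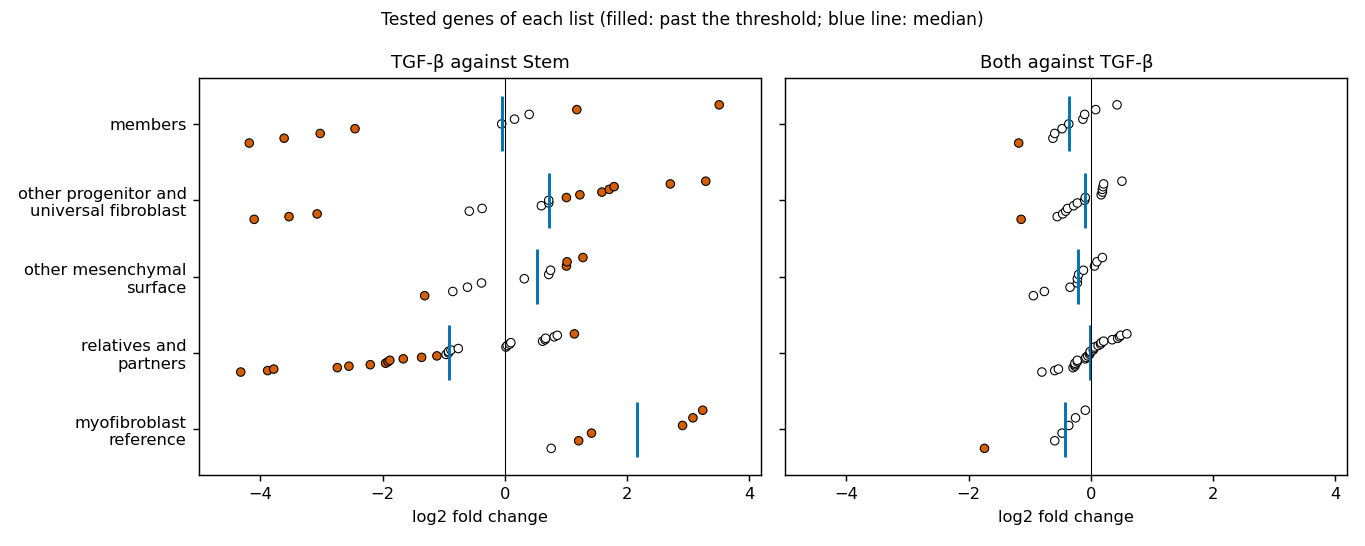
Log2 fold change (horizontal) of the tested genes in each list (vertical), with TGF-β against Stem on the left and Both against TGF-β on the right. Filled points are past the threshold and blue lines are medians. The 9 tested members and the other progenitor markers spread to both sides with TGF-β, at medians of -0.05 and 0.72, and most points lie within 2-fold with PFI-3.

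Across the 9 libraries, the genes most like Ly6a by Pearson's correlation of log2 normalized counts were Galnt13 (r = 0.9994), Igsf10 (0.999) and Cep68 (0.9986) of 10898 genes compared. Of these, 215 had r over 0.99. The correlation describes mainly the step between Stem and the stimulated groups, since the 9 libraries fall into those clusters, and no p is given.

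The mature smooth muscle marker Myh11 was lower in TGF-β (-1.58, adjusted p = 2.12e-05), and Acta2 and Tagln, which myofibroblasts share, were higher. The summed smooth muscle list was at 10616 to 13334 in Stem, 22714 to 25175 in TGF-β and 17412 to 18346 in Both. Acta2 and Tagln carried most of that sum, with means of 4833 and 3402 in Stem and 11215 and 9089.7 in TGF-β. Of the other 5 genes, Lmod1 was lower like Myh11 but by under 2-fold (-0.69, adjusted p = 2.37e-06), Cnn1 and Smtn were at -0.18 and -0.06 (adjusted p = 0.203 and 0.51), and Des was at 0.97 (adjusted p = 0.011). For other cell types, the summed levels in Stem, TGF-β and Both were 60.8 to 208, 45.3 to 72.2 and 38.6 to 52.2 for 6 endothelial genes and 138 to 145, 163 to 209 and 276 to 297 for 6 leukocyte genes. The part of these other markers in the values of the 10 genes was not tested.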

How the data were processed

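Cultured AdvSca1-SM cells gave 9 RNA-Seq libraries, 3 in each group. The deposited values are raw counts of reads on each Ensembl gene, which the authors did not normalize, from ribo-depleted stranded libraries. The paper's methods name Flexbar, STAR and GRCm39, whereas the submitters' processing notes name HISAT2 2.2.1, SAMtools 1.13, HTSeq 0.11.3 and GRCm39; which aligner made the counts was not settled. How strand and multiply aligned reads were handled in counting is not given in the sources used here. The 10 genes, the lists and the tests were chosen with earlier results of these data known.

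The analysis used R 4.3.3 and edgeR 4.0.16 (filterByExpr, TMM, 1 quasi-likelihood fit over the 9 libraries on group alone, Benjamini-Hochberg adjustment over 14879 genes). Called genes had an adjusted p below 0.05 and a log2 fold change outside -1 to 1. The paper's methods use these limits with DESeq2, which served here as an alternative (version 1.42.0). Normalized counts refer to a library of 41184338, the mean after TMM scaling (factors 0.967 to 1.08), where the floor of 3 counts is 2.63 to 3.26. Standard errors came from the F statistic and fold changes used a prior count of 0.125. P-values measure the spread between these libraries. Levels between genes were set per kilobase of mean transcript length from a GENCODE annotation of another build, so no coordinates of the counts are given. On simulated counts for TGF-β against Both with 200 changed genes, edgeR recovered 200 with 2 false calls among 14103 genes. DESeq2 recovered 200 with 0 false calls among 14879 genes. These rates hold only for changes of the size and count level simulated. They do not give the power for a change near the fold-change minimum on low counts, such as that of Scara5.

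Besides the 10 genes, those named are the 2 largest rises and the 2 largest falls past the threshold, with a mean of at least 100 normalized counts, in each list of other progenitor and fibroblast markers, of other mesenchymal surface markers and of relatives and partners. Also named are receptors that work with Eng, genes of the adenosine path of Nt5e, relatives of Dpp4 and Ly6a, 6 myofibroblast genes, markers of other cell types and the 3 genes most like Ly6a. Dcn, Adora2a, Dpp8, Dpp9, Gli1, Klf4, Kdr, Apob, Cspg4, Rgs5 and other single markers were named after their values were seen. Alternatives changed the tool (DESeq2), the scaling (DESeq2's size factors, total counts), the filter (none, a mean of 10 counts or more), the samples (the 6 libraries of a comparison, each library left out), the model (replicate block), the prior count (2), the threshold (adjusted p alone) and the transcript length (longest).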

Additional observations from a re-analysis of the deposited data

How the results depend on the processing

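Most results held under the alternatives. Of 378 fold changes of single genes under another setting 368 kept their direction and their side of the threshold, and of 210 counts 190 stayed within 1.5 times. Between TGF-β and Both, Dpt at -0.13 ranged from -0.27 to 0.01 when 1 library was left out and changed sign (0.01, adjusted p = 0.978) without Both replicate 2, and the count of the 10 genes called was 0 to 1 when 1 library was left out, 0 in 5 of 6 fits and 1 without Both replicate 2. Nt5e passed the threshold against both stimulated groups without Stem replicate 1, and Cd248 fell under it between Stem and Both without that library or with total counts, which moved the median of all genes by -0.12 from Stem to TGF-β and by -0.11 from Stem to Both. With total counts, 2 other mesenchymal markers were called between Stem and TGF-β. Without the fold-change minimum, 11158, 1327 and 10900 of all genes passed in the 3 comparisons, 3 of the 10 genes between TGF-β and Both, and, in the lists of progenitor, mesenchymal and related genes, 15, 10 and 22 with TGF-β against Stem, 7, 5 and 7 with Both against TGF-β and 15, 9 and 24 with Both against Stem. Without the filter on low counts, 163 genes passed between TGF-β and Both in place of 94, with more genes tested. Leaving out 1 library gave 0 to 1 other mesenchymal markers called in that comparison, 1 without Both replicate 2. The cause of the other changes was not tested.

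Replicate numbers were not taken to pair the libraries, since same-numbered libraries had correlations of their deviations from the group mean of -0.0636 to 0.161, not all of them over 0.1. For each replicate 2 library the best partner in another group was that group's replicate 2 (0.132, 0.161 and 0.1 in the 3 pairs of groups). Those numbered 1 and 3 were not matched in this way in every pair. Between TGF-β and Both, TGF-β replicate 1 and Both replicate 3 correlated at 0.105, above the replicate 2 libraries. With a replicate block, 6, 1 and 6 of the 10 genes were called in the 3 comparisons, as without it, and 3736, 120 and 3394 of all genes. Depth limits Dpp4, Nt5e and, in the stimulated groups, Cd34, whose libraries rest on fewer than 31 counts each.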

Other observations

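Single genes known from other cell types moved between Stem and TGF-β while other markers of the same cell types were at or near 0. S100b, a Schwann cell and glial marker, was at 25.1, 34.8 and 30.3 normalized counts in Stem, at 422, 356 and 417 in TGF-β and at 229, 239.9 and 241 in Both (log2 fold change from Stem to TGF-β 3.72, edgeR adjusted p = 9.48e-11), and Sox10 had 0 counts in every library. Upk1b, a mesothelial marker, was at 3.14, 3.26 and 7.57 in Stem and at 89.6, 76.1 and 62.5 in TGF-β (3.99, adjusted p = 1.41e-07), with Msln at 5.92 or less throughout, while Upk3b, of the same list, was at 28.3 to 42.9 in Stem and 54.7 to 89.6 in TGF-β (0.91, adjusted p = 0.00767). Kdr, an endothelial receptor gene, was at 0, 0 and 2.16 in Stem and at 22.7, 25.4 and 30.3 in TGF-β (adjusted p = 8.34e-06), with Tie1 at 3.14 or less, while Emcn, of the same list, fell. Fabp4, used as an adipocyte marker, was at 217, 178 and 199 in Stem and at 39.9, 39.6 and 44.9 in TGF-β (-2.25, adjusted p = 3.2e-08), and Cidec had 0 counts. Csf1r, a receptor of macrophages, was at 34.5, 18.5 and 32.5 in Stem, at 89.6, 53.8 and 84.9 in TGF-β and at 135, 143 and 137 in Both (Stem to Both 2.27, adjusted p = 1.63e-06), and Adgre1 had 0 counts, while Lyz2, of the same list, was at 102 to 152 in the 9 libraries. These genes were chosen after their values were seen.

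The pericyte gene Rgs5, which rose beside Cd248, was at 129.8, 119.5 and 125 in Stem, at 6535, 7078 and 5615 in TGF-β and at 2026, 2619 and 1715 in Both, and unlike Cd248 passed the threshold as lower with PFI-3 (-1.60, adjusted p = 2.77e-05).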
